A study of Mus musculus with 3 samples.

Results

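The 7 genes described here encode the chains of mouse haemoglobin, the oxygen carrier of red blood cells, among 30406 genes present in the gene tables of all 3 single-cell libraries of the study. They were given as a list, chosen with their levels in these libraries known, so their levels are described without a test. 4 are adult-type genes, namely the alpha genes Hba-a1 and Hba-a2 and the beta genes Hbb-bs and Hbb-bt, and 3 are embryonic-type genes, namely the alpha-type Hba-x (zeta) and the beta-type Hbb-y (epsilon-y) and Hbb-bh1. Of the 7 genes 6 had at least 1 UMI (unique molecular identifier, a count of a captured RNA molecule) in every library, and Hbb-bh1 had 0 in each. The libraries were made from pooled lungs of the embryos of C57/B6 females at E14.5, mid-gestation. 2 libraries held cells sorted as Epcam+ Icam+, that is, for the epithelial surface protein Epcam together with the adhesion molecule Icam1, and 1 library held cells sorted as Epcam+ with no Icam1 gate named. No allele or agent separates the groups, and the protocol, written identically for all samples, includes an incubation in red blood cell lysis buffer before staining. The labels do not tie a library to an embryo or to a pool. With 1 Epcam+ library, sort, library preparation and software version cannot be told apart.

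Haemoglobin is a tetramer of alpha-type and beta-type chains around heme. In mouse embryos the first red cells, the primitive lineage of the yolk sac, enter the blood as nucleated cells and carry embryonic chains, with Hbb-bh1 giving way to Hbb-y as they mature. Definitive red cells from the fetal liver carry adult chains, lose their nucleus and take over the circulation before birth. Hbb-bs and Hbb-bt are the adult beta genes of the beta-globin haplotype that C57BL mice carry. Red cells lack Epcam, so an Epcam gate is meant to leave them out.

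Both gene groups lie in compact clusters, with the embryonic genes upstream. In GRCm38 the alpha-type genes lie on the plus strand of chromosome 11, with Hba-x (ENSMUSG00000055609) at chr11:32276400-32278116, Hba-a1 (ENSMUSG00000069919) at chr11:32283511-32284465 and Hba-a2 (ENSMUSG00000069917) at chr11:32296489-32297298. The beta-type genes lie on the minus strand of chromosome 7, with Hbb-y (ENSMUSG00000052187) at chr7:103851749-103853216, Hbb-bh1 (ENSMUSG00000052217) at chr7:103841637-103843164, Hbb-bs (ENSMUSG00000052305) at chr7:103826534-103828096 and Hbb-bt (ENSMUSG00000073940) at chr7:103812524-103813996. Each is a protein-coding gene with 3 exons in the GENCODE annotation, and none shares exonic bases with another gene on its strand. The copies within a pair are nearly identical. The coding sequences of Hba-a1 and Hba-a2 differ at 1 of 429 aligned positions, and their 3′ untranslated regions at 0 of 74. The coding sequences of Hbb-bs and Hbb-bt differ at 1 of 444 aligned positions, but their 3′ untranslated regions differ at 38 of 131. A read from the 3′ end therefore offers few bases by which Hba-a1 and Hba-a2 can be told apart, and the split of counts between those copies is uncertain. Hba-x and Hba-a1 match at 64.9% of aligned coding positions, and Hbb-y and Hbb-bs at 74.3%.

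The promoters are shown because the adult genes occurred together in the globin-rich barcodes, nearly all of which held no embryonic UMI. RefSeq (GRCm38.p6) gave a promoter for 6 of the 7 genes. The 150 bases before the RefSeq start are printed 5′ to 3′ for 5 of them, with every match on either strand to the motif CACCC, to the motif CCAAT, to the motif ATAAAA or to the motif AGATAA in capitals. Hba-a1 is left out because its window is that of Hba-a2, shifted by 3 bases. The RefSeq starts differ from those of the GENCODE gene spans given above. The windows of Hba-x and Hbb-bs lie wholly inside these spans, and the other printed windows overlap them in part.
Hba-a2, chr11:32296342-32296491, strand plus: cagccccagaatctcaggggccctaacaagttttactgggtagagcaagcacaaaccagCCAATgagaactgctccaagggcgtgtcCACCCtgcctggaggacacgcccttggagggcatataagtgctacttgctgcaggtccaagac
Hbb-bs, chr7:103827929-103828078, strand minus: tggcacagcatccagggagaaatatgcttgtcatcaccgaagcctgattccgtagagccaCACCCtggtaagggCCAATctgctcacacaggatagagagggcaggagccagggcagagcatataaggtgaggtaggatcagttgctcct
Hbb-bt, chr7:103813924-103814073, strand minus: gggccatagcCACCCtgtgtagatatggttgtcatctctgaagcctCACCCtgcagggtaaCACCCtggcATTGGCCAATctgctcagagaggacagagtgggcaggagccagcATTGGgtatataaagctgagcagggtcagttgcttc
Hba-x, chr11:32276450-32276599, strand plus: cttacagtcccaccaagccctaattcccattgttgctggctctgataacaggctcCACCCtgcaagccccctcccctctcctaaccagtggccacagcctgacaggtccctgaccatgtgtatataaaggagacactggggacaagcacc
Hbb-y, chr7:103853208-103853357, strand minus: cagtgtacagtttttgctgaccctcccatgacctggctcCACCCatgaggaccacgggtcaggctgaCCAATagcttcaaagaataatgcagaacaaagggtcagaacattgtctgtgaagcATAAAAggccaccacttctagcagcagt
CACCC matched in 6 of the 6 promoters and in 37.4% of all 32851 promoters of that length, and CCAAT in 5 of 6 (all but Hba-x) and in 24.5%. ATAAAA matched in Hbb-y only, against 10.1% of all promoters, and AGATAA in none of the 6, against 5.65%. Hbb-bt held 3 matches to CACCC and 3 to CCAAT, with a pair of the CCAAT matches side by side on opposite strands, where Hbb-bs held 1 of each. A match is a string of letters and not a binding site, and its absence says only that these letters are not in this window.

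Depth was 74170599 and 67843828 UMIs over 4739 and 4531 barcodes for Epcam+ Icam+, against 84460347 UMIs over 3697 barcodes for Epcam+. No barcode had fewer than 500 UMIs. All deposited barcodes were used, and levels are given in CPM, the UMIs of a gene scaled to the total UMIs of the library. The Epcam+ Icam+ libraries shared 3 barcode sequences with each other, replicate 2 shared 1 with the Epcam+ library, and 0 were shared among high-globin barcodes. Epithelial-like barcodes were the most common named class, at 2313 and 2014 in the Epcam+ Icam+ libraries, against 2443 in the Epcam+ library. Macrophage-like barcodes, which the Epcam gate is not meant to keep, numbered 602 and 506 in the Epcam+ Icam+ libraries, against 154 in the Epcam+ library.

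Summed over barcodes, the 7 genes made up 0.103% and 0.194% of UMIs in the Epcam+ Icam+ libraries, against 0.112% in the Epcam+ library, which lay between the replicates. The genes together had 1034 and 1941 CPM in Epcam+ Icam+ replicates 1 and 2, against 1121 CPM in the Epcam+ library, which are log2 differences of -0.12 and 0.79. The mean CPM of the Epcam+ Icam+ libraries lay 0.41 above the Epcam+ library on the log2 scale, less than the SD of 0.64 between the replicates' differences. With 2 libraries against 1 no exact permutation test can give a p below 0.333.

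Among adult alpha genes, Hba-a1 had 207 and 403 CPM in the Epcam+ Icam+ libraries, against 283 CPM in the Epcam+ library. Hba-a2, its downstream copy, had 170 and 336 CPM in the Epcam+ Icam+ libraries, against 248 CPM in the Epcam+ library. For each of them the Epcam+ library lay between the replicates.

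Of the adult beta genes, Hbb-bs, the member with the most UMIs in each library, had 468 and 867 CPM in the Epcam+ Icam+ libraries, against 377 CPM in the Epcam+ library. It was the only adult gene for which both Epcam+ Icam+ libraries lay above the Epcam+ library, by 0.31 and 1.20 on the log2 scale. Hbb-bt had 182 and 335 CPM in the Epcam+ Icam+ libraries, against 211 CPM in the Epcam+ library. These values rest on at least 12624 UMIs each, so their counting intervals are narrow: that of Hbb-bt in the Epcam+ library ran from 208 to 215 CPM (exact Poisson, 95%). Such intervals cover counting error only, and the replicates differed by far more.

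The embryonic genes were scarce. Hba-x had 184 and 1 UMIs in the Epcam+ Icam+ libraries, against 3 in the Epcam+ library, and Hbb-y had 385 and 8 UMIs in the Epcam+ Icam+ libraries, against 37 in the Epcam+ library. Hbb-bh1 had 0 UMIs throughout, which at 3 counts allows a level of up to 0.0404 and 0.0442 CPM in the Epcam+ Icam+ libraries, against 0.0355 CPM in the Epcam+ library. Replicate 1 was thus high in both embryonic genes, while replicate 2 was below the Epcam+ library in both.

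Nearly all globin RNA sat in a few barcodes. A barcode was called high-globin where the members made up at least 10% of its UMIs, which took 18 and 32 barcodes in the Epcam+ Icam+ libraries, against 7 in the Epcam+ library. These are 0.380% and 0.706% of barcodes in the Epcam+ Icam+ libraries (exact binomial 95% intervals 0.225% to 0.600% and 0.484% to 0.996%), against 0.189% in the Epcam+ library (0.0762% to 0.390%). They held 98.2% and 96.0% of all globin UMIs in the Epcam+ Icam+ libraries, against 95.7% in the Epcam+ library. The richest barcode alone held 27.5% and 16.8% of the library's globin UMIs in the Epcam+ Icam+ libraries, against 33.1% in the Epcam+ library. The level of globin in a library therefore rested on a handful of barcodes. Fewer red cells and less globin RNA per cell cannot be told apart in a library sum. The lowest globin share inside the cut was 33.3% and 26.7% in the Epcam+ Icam+ libraries, against 12.6% in the Epcam+ library, and the highest share outside it was 3.81% and 8.68% in the Epcam+ Icam+ libraries, against 1.54% in the Epcam+ library.

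**Figure D1:**
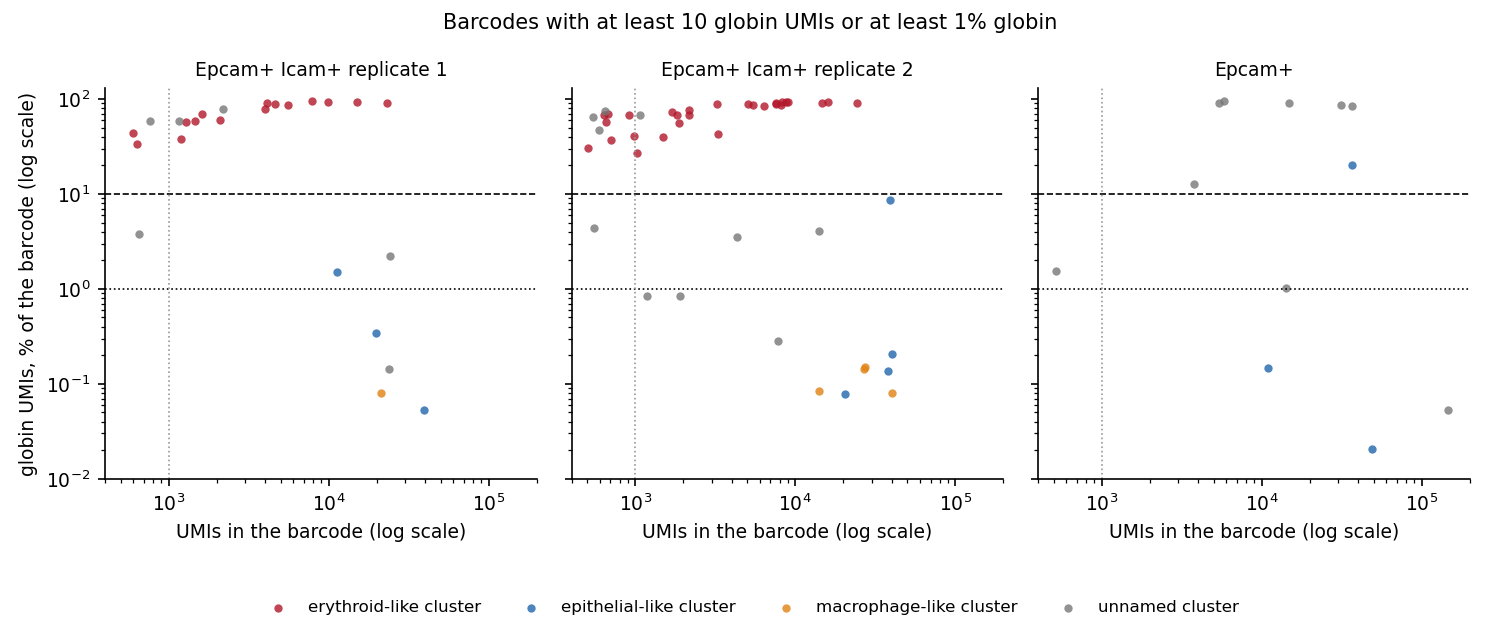
Each point is a barcode with at least 10 globin UMIs or at least 1% globin, by its UMIs (horizontal, log scale) and the percentage of them that are globin (vertical, log scale), coloured by the class of its cluster. Dashed and dotted horizontal lines mark 10% and 1%, and the vertical line 1000 UMIs. The high-globin barcodes of the Epcam+ Icam+ libraries (18 and 32) spread down to 602 and 510 UMIs, and the 7 of the Epcam+ library start at 3772.

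High-globin barcodes in the 2 kinds of sort differed in depth and in how many other genes they held. In the Epcam+ Icam+ libraries their median was 2143 and 2020.5 UMIs, against 14838 UMIs in the Epcam+ library. Their median number of genes was 123.5 and 127 in the Epcam+ Icam+ libraries, against 1258 in the Epcam+ library. A common filter (at least 1000 UMIs, at least 500 genes, at most 10% mitochondrial UMIs) kept 0 of 18 and 1 of 32 in the Epcam+ Icam+ libraries, against 5 of 7 in the Epcam+ library. After that filter the summed globin level was 16.7 and 97.2 CPM in the Epcam+ Icam+ libraries, against 1007 CPM in the Epcam+ library, and the log2 ratio of the mean CPM of the Epcam+ Icam+ libraries to that of the Epcam+ library was -4.14 in place of 0.41. So the direction of the difference in globin between the sorts depended on whether barcodes with few genes were kept. Without the high-globin barcodes the levels were 18.7 and 77.7 CPM in the Epcam+ Icam+ libraries, against 48.2 CPM in the Epcam+ library, and again the replicates lay on either side.

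Erythroid genes outside the globin loci marked the same barcodes. Clusters were formed within each library with the globin genes left out, and a cluster was named erythroid-like from Alas2, Slc4a1 and other markers. That gave a cluster of 15 barcodes in Epcam+ Icam+ replicate 1 and of 28 in replicate 2, and every barcode of both was high-globin, with 94.5% and 94.6% of the library's globin UMIs. In the Epcam+ library no cluster took that name. There 6 of the 7 high-globin barcodes fell in an unnamed cluster of 102 barcodes that was led by Alas2 and held mixed other barcodes, with 88.1% of the globin UMIs. The remaining high-globin barcode of that library lay in an epithelial-like cluster, with 36370 UMIs, 7271 of them globin (20.0%), 33 Epcam UMIs and 11 Alas2 UMIs. Its closest counterpart in Epcam+ Icam+ replicate 2 had 38920 UMIs, 3377 of them globin (8.68%), 41 Epcam UMIs and 0 Alas2 UMIs. Whether such barcodes held 2 cells was not tested.

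The richest barcodes show what these cells look like in the data. In Epcam+ Icam+ replicate 1 the richest held 23163 UMIs from only 403 genes, with 8805 of Hbb-bs, 4802 of Hbb-bt, 4119 of Hba-a1 and 3373 of Hba-a2, and none of an embryonic gene. In replicate 2 it held 24455 UMIs from 428 genes, with 9827 of Hbb-bs, 4482 of Hbb-bt, 4140 of Hba-a1 and 3688 of Hba-a2. In the Epcam+ library it held 36667 UMIs from 1583 genes, with 9546 of Hbb-bs, 6508 of Hbb-bt, 7979 of Hba-a1 and 7280 of Hba-a2. Globin was 91.1% and 90.5% of the barcode in the Epcam+ Icam+ libraries, against 85.4% in the Epcam+ library.

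Beta-type and alpha-type RNA were not in equal numbers. In the library sums there were 1.73 and 1.63 beta-type UMIs per alpha-type UMI in the Epcam+ Icam+ libraries, against 1.11 in the Epcam+ library. Over single high-globin barcodes with at least 200 globin UMIs the ratio was lower and varied widely. In the 17 barcodes of replicate 1 that were not mostly embryonic it ran from 0.626 through a median of 1.32 to 2.59. In the 31 of replicate 2 it ran from 0.542 through 1.24 to 3.13, and in the 7 of the Epcam+ library from 0.181 through 1.09 to 1.18. Barcodes with at least 1000 globin UMIs had medians of 1.77 and 1.40 in the Epcam+ Icam+ libraries (11 and 19 barcodes), against 1.11 in the Epcam+ library (6 barcodes). Those with fewer had medians of 1.08 and 1.02 in the Epcam+ Icam+ libraries (6 and 12 barcodes), and the lone one of the Epcam+ library had 0.181. At least 1.5 beta-type UMIs per alpha-type UMI were found in 7 of 17 and 8 of 31 barcodes of the Epcam+ Icam+ libraries and in 0 of 7 of the Epcam+ library.

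**Figure D2:**
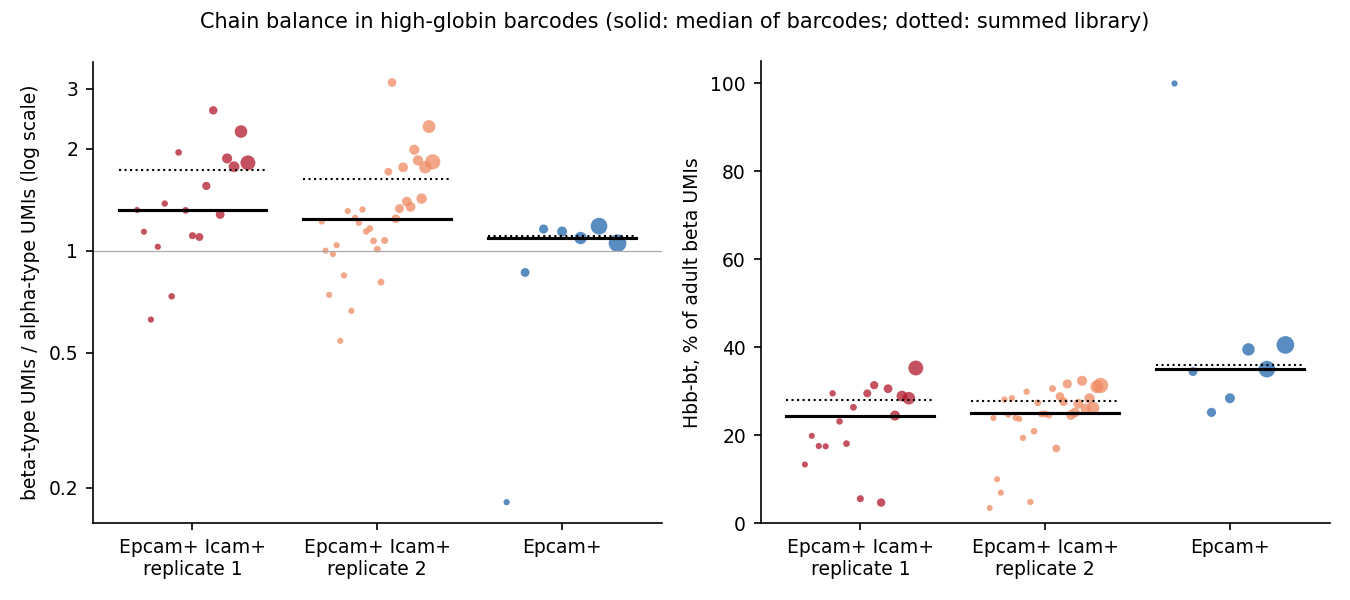
Points are high-globin barcodes with at least 200 globin UMIs that are not mostly embryonic (17, 31 and 7), ordered by globin UMIs within a library, with larger points for more. The left panel gives beta-type per alpha-type UMI (log scale) and the right panel Hbb-bt as a percentage of Hbb-bs plus Hbb-bt. Solid lines are medians over barcodes (1.32 and 1.24 in the Epcam+ Icam+ libraries, against 1.09 in the Epcam+ library, left) and dotted lines the summed library (1.73, 1.63 and 1.11).

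The share of the adult beta genes that was Hbb-bt also varied between barcodes, and the split of the alpha pair had like medians in the 3 libraries with single barcodes far off. Hbb-bt was 28.0% and 27.9% of adult beta UMIs in the Epcam+ Icam+ libraries, against 35.9% in the Epcam+ library. Over the same barcodes it ran from 4.69% to 35.3% (median 24.5%) in replicate 1, from 3.45% to 32.4% (25.1%) in replicate 2 and from 25.2% to 100% (35.0%) in the Epcam+ library. A barcode of replicate 1 with 4108 globin UMIs had 139 of Hbb-bt beside 2826 of Hbb-bs, so low shares also occurred in well-counted barcodes. Hba-a2 was 45.2% and 45.5% of adult alpha UMIs in the Epcam+ Icam+ libraries, against 46.7% in the Epcam+ library, with medians over barcodes of 45.7% and 45.1% in the Epcam+ Icam+ libraries, against 45.9% in the Epcam+ library. Single barcodes ran from 40.7% to 83.5% in replicate 1, from 41.2% to 61.9% in replicate 2 and from 4.96% to 47.8% in the Epcam+ library. The assignment of reads within that pair is uncertain, given their sequences.

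A pair of barcodes in the Epcam+ library held globin of an uneven kind. The first, with 3772 UMIs and 1462 genes, had 383 UMIs of Hba-a1, 73 of Hbb-bt, 20 of Hba-a2 and 0 of Hbb-bs. The second, with 14237 UMIs and 3345 genes, had 125 of Hba-a1, 17 of Hba-a2, 2 of Hbb-bt and 1 of Hbb-bs. Alas2 was at 0 in both, and the endothelial gene Pecam1 had 3 and 2 UMIs. These barcodes were singled out after their values were seen. In both, Hba-a1 far exceeded its near-identical copy, unlike in the 6 high-globin barcodes of the library other than the first.

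Embryonic globin made up 0.742% and 0.00683% of globin UMIs in the Epcam+ Icam+ libraries, against 0.0423% in the Epcam+ library (exact binomial intervals 0.683% to 0.805%, 0.00313% to 0.0130%, and 0.0302% to 0.0576%). That is 134 and 14630 adult UMIs per embryonic UMI in the Epcam+ Icam+ libraries, against 2365 in the Epcam+ library. Hba-x was 0.654% and 0.00199% of alpha-type UMIs in the Epcam+ Icam+ libraries, against 0.00668% in the Epcam+ library. Hbb-y was 0.793% and 0.00981% of beta-type UMIs in the Epcam+ Icam+ libraries, against 0.0744% in the Epcam+ library.

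The high share of replicate 1 came from 1 barcode. It held 1167 UMIs from 132 genes, of which 372 were Hbb-y, 183 Hba-x, 70 Hba-a1, 50 Hba-a2, 6 Hbb-bt and 1 Hbb-bs, so that 81.4% of its globin was embryonic. It carried 555 of the library's 569 embryonic UMIs, and without it the share in replicate 1 was 0.0184%. Alas2, Epcam and Hbb-bh1 were at 0 in it. None of the other high-globin barcodes of the Epcam+ Icam+ libraries held an embryonic UMI, and in the Epcam+ library 1 of 7 did, with 1 Hbb-y UMI beside 27534 adult ones. Of the barcodes with an embryonic UMI, 1 of 6 and 2 of 4 in the Epcam+ Icam+ libraries also held adult globin, against 6 of 7 in the Epcam+ library.

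Outside the high-globin barcodes, embryonic globin appeared in barcodes that held genes of other kinds of cell. Whether these barcodes held several cells or carried-over RNA was not tested. In the Epcam+ library 31 of 40 embryonic UMIs sat in a barcode of 146288 UMIs and 8197 genes, with 28 UMIs of Hbb-y, 3 of Hba-x, 28 of Hba-a1 and 11 of Hba-a2. This barcode held the endothelial genes Pecam1 (32 UMIs), Cdh5 (44), Kdr (24) and Emcn (44), with 6 Epcam UMIs and none of Alas2. A second barcode with endothelial genes (61289 UMIs, Cdh5 62, Pecam1 41) held 4 UMIs of Hbb-y and 2 of Hbb-bs. Without the first barcode the embryonic share of the Epcam+ library was 0.00952%. Of the other 6 barcodes with an embryonic UMI in that library, 3 were epithelial-like and 1 macrophage-like. The 2 unnamed ones were the second barcode with endothelial genes and the high-globin barcode with 27534 adult globin UMIs.

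**Figure D3:**
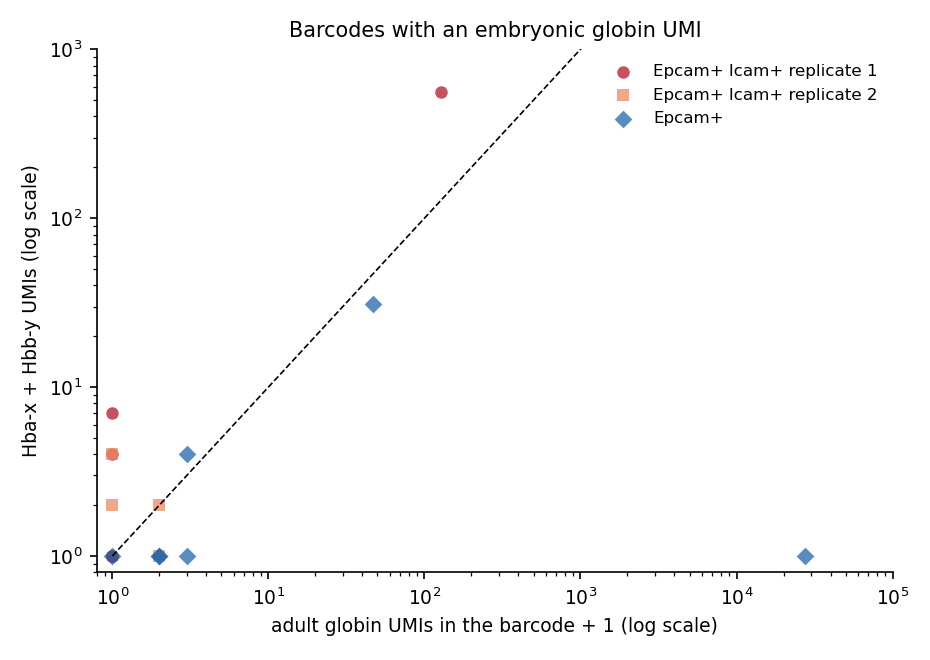
Each point is a barcode with at least 1 UMI of Hba-x or Hbb-y (6 and 4 in the Epcam+ Icam+ libraries, 7 in the Epcam+ library), by its adult globin UMIs plus 1 (horizontal, log scale) and its embryonic UMIs (vertical, log scale). On the dashed line the plotted values are equal. The barcode at 555 embryonic UMIs belongs to Epcam+ Icam+ replicate 1, and that at 31 to the Epcam+ library.

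In the Epcam+ Icam+ libraries, globin summed over macrophage-like barcodes had another makeup than that summed over epithelial-like ones, a difference that rested on few barcodes. Fetal macrophages take up red cells and their nuclei. Among barcodes under 1% globin, embryonic UMIs were 10.2% of the globin in macrophage-like barcodes of replicate 1 (12 of 118 UMIs, interval 5.37% to 17.1%) and 2.82% in those of replicate 2 (7 of 248, 1.14% to 5.73%), against 0.469% in the Epcam+ library (1 of 213, 0.0119% to 2.59%). In epithelial-like barcodes they were 0.313% and 0% in the Epcam+ Icam+ libraries (1 of 319 and 0 of 483), against 0.0912% in the Epcam+ library (3 of 3289). All embryonic UMIs of macrophage-like barcodes lay in barcodes of fewer than 10 globin UMIs, so leaving out the others could not lower their share. It was then 11.9% and 5.65% in the Epcam+ Icam+ libraries, against an unchanged 0.469% in the Epcam+ library. The embryonic UMIs came from 3 macrophage-like barcodes in each Epcam+ Icam+ library. The variance of globin UMIs was 4.52 and 18.4 times their mean in macrophage-like barcodes of these libraries. The intervals take UMIs as independent and are therefore too narrow. The most were 7 UMIs of Hbb-y in a barcode with 63 UMIs of the macrophage gene C1qb and none of any other globin. The next was a barcode of replicate 1 with 3 of Hbb-y, 1 of Hba-x and no adult globin. In replicate 2 the most were 4 UMIs of Hbb-y in a barcode with 89 of C1qb, again with no adult globin.

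Hbb-bt, too, made up a larger share of adult beta UMIs in macrophage-like than in epithelial-like barcodes. It was 48.6% and 60.0% of adult beta UMIs in macrophage-like barcodes of the Epcam+ Icam+ libraries, against 33.3% in macrophage-like barcodes of the Epcam+ library. In epithelial-like barcodes it was 23.5% and 20.6% in the Epcam+ Icam+ libraries, against 25.1% in the Epcam+ library. 2 macrophage-like barcodes of replicate 2 weighed heavily on this, with 39 and 32 UMIs of Hbb-bt and 0 of the other 6 members. They held 78 and 53 UMIs of C1qb. Without barcodes of 10 or more globin UMIs, Hbb-bt was 48.4% and 38.2% of adult beta UMIs in macrophage-like barcodes of the Epcam+ Icam+ libraries (intervals 35.5% to 61.4% and 26.7% to 50.8%), against 33.3% in those of the Epcam+ library (25.5% to 41.9%). In epithelial-like barcodes it was then 27.6% and 21.9% in the Epcam+ Icam+ libraries (20.0% to 36.2% and 16.2% to 28.4%), against 25.1% in the Epcam+ library (23.2% to 27.0%). In each library the intervals of macrophage-like and epithelial-like barcodes overlapped. Of macrophage-like barcodes with at least 3 globin UMIs, 4 of 9 and 4 of 12 in the Epcam+ Icam+ libraries held a single member, against 2 of 31 in the Epcam+ library. In each Epcam+ Icam+ library that member was Hbb-bt in 3 barcodes and Hbb-y in 1. Of epithelial-like barcodes with at least 3 globin UMIs, 0 of 3 and 2 of 10 in the Epcam+ Icam+ libraries held a single member, against 34 of 411 in the Epcam+ library, where it was Hbb-bs in 29. This count was chosen after the values were seen.

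The level in cells that should lack globin was read as the free RNA level, since RNA released into the suspension can enter any droplet. Whether these UMIs came from the suspension was not tested, and the word free is only a name for this level. No list of empty droplets was used, and the level was read in epithelial-like barcodes under 1% globin. It averaged 0.138 and 0.240 globin UMIs per barcode in the Epcam+ Icam+ libraries (exact Poisson intervals 0.123 to 0.154 and 0.219 to 0.262), against 1.35 in the Epcam+ library (1.30 to 1.39). A globin UMI was present in 8.87% and 13.7% of these barcodes in the Epcam+ Icam+ libraries (median depth 19979 and 20644 UMIs), against 68.8% in the Epcam+ library (28493.5 UMIs). The level was 6.47 and 10.7 CPM in the Epcam+ Icam+ libraries, against 43.9 CPM in the Epcam+ library, or 6.80-fold and 4.10-fold lower. Thinned to 3000 UMIs per barcode, which left out 87 and 34 shallower barcodes in the Epcam+ Icam+ libraries, against 23 in the Epcam+ library, 1.71% and 2.73% held a globin UMI in the Epcam+ Icam+ libraries, against 11.8% in the Epcam+ library. Macrophage-like barcodes gave 3.01% and 3.37% in the Epcam+ Icam+ libraries, against 8.72% in the Epcam+ library. With barcodes thinned to 3000 UMIs the free level was higher in the Epcam+ library, although its summed globin level lay between the replicates. With a cut at 10% globin in place of 1%, however, replicate 2 had 1.92 UMIs per epithelial-like barcode, above the 1.35 of the Epcam+ library, because the barcode with 3377 globin UMIs then counts. The free level was not tested, since the members were chosen with these values known.

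In the Epcam+ library globin UMIs in these cells were spread almost evenly, whereas in the Epcam+ Icam+ libraries a few barcodes held much of them. In epithelial-like barcodes the variance of globin UMIs was 16.8 and 21.2 times their mean in the Epcam+ Icam+ libraries, against 1.37 times in the Epcam+ library. A Poisson interval takes the variance to equal the mean, so the intervals given for the free level of the Epcam+ Icam+ libraries are too narrow. The most in a barcode were 68 and 83 UMIs in the Epcam+ Icam+ libraries, against 16 in the Epcam+ library. Without barcodes of 10 or more globin UMIs the mean was 0.0996 and 0.165 UMIs per barcode in the Epcam+ Icam+ libraries, against 1.34 in the Epcam+ library. Summed over all barcodes under 1% globin, there were 8.67 and 8.92 globin UMIs per 1000 in high-globin barcodes in the Epcam+ Icam+ libraries, against 43.2 in the Epcam+ library.

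The level in CPM was highest in the shallowest barcodes. Among all barcodes under 1% globin, those with 500 to 1000 UMIs had 144 and 205 CPM in the Epcam+ Icam+ libraries, against 188 CPM in the Epcam+ library. Those with 10000 to 20000 UMIs had 9.62 and 11.5 CPM in the Epcam+ Icam+ libraries, against 48.0 CPM in the Epcam+ library. From 40000 UMIs up the levels were 2.76 and 14.0 CPM in the Epcam+ Icam+ libraries, against 45.2 CPM in the Epcam+ library. At the lowest depth the Epcam+ library lay between the replicates, and from 3000 UMIs up it lay above both. The mean number of globin UMIs per barcode at the lowest depth was 0.103 and 0.147 in the Epcam+ Icam+ libraries, against 0.137 in the Epcam+ library. In the Epcam+ library it was 2.49 from 40000 UMIs up, so there the number of globin UMIs rose with the depth of the barcode.

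**Figure D4:**
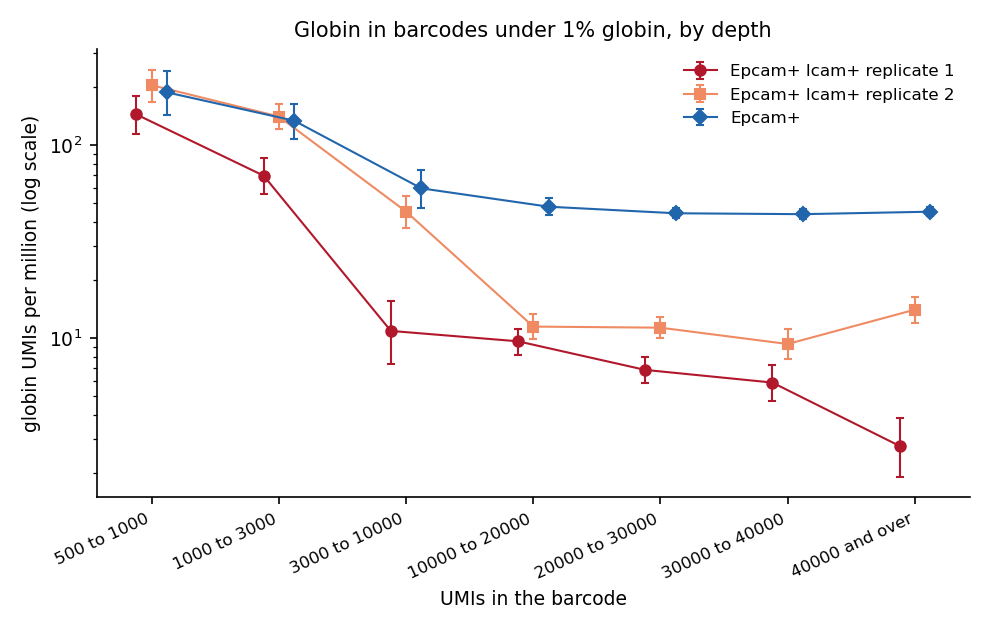
Globin level in CPM (vertical, log scale) in barcodes under 1% globin, by the UMIs of the barcode, for each library. Bars are exact Poisson intervals of 95% and cover counting error only. The Epcam+ library is level at 43.9 to 48.0 from 10000 UMIs up, above both Epcam+ Icam+ libraries there.

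The free globin of the Epcam+ library had another makeup than its high-globin barcodes, while in the Epcam+ Icam+ libraries the free globin rests on 319 and 483 UMIs and some of its intervals include the high-globin share. In the Epcam+ library Hbb-bs was 48.3% of globin UMIs in epithelial-like barcodes under 1% globin (interval 46.6% to 50.04%) and 33.1% in the high-globin barcodes. Hba-a1 was 17.2% in the free globin of that library (15.9% to 18.5%) and 25.5% in its high-globin barcodes. The free globin there had 1.83 beta-type UMIs per alpha-type UMI and its high-globin barcodes 1.09. In the Epcam+ Icam+ libraries Hbb-bs was 39.8% and 47.0% of the free globin (34.4% to 45.4% and 42.5% to 51.6%), with 45.3% and 44.8% in the high-globin barcodes. Hbb-bt was 12.2% of the free globin in each Epcam+ Icam+ library (8.84% to 16.3% and 9.43% to 15.5%) and 17.7% and 17.5% of that in their high-globin barcodes. The interval of Hbb-bs in replicate 1 and in replicate 2 includes the share in high-globin barcodes. Without barcodes of 10 or more globin UMIs, Hbb-bt in replicate 1 was 27.6% of adult beta UMIs in the free globin (20.0% to 36.2%), beside 28.1% in the high-globin barcodes. Hba-x was at 0 in the free globin of all 3 libraries. Hbb-y had 1 and 0 UMIs there in the Epcam+ Icam+ libraries, against 3 in the Epcam+ library. The 7 high-globin barcodes of the Epcam+ library thus held globin in other proportions than its epithelial-like barcodes under 1% globin.

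**Figure D5:**
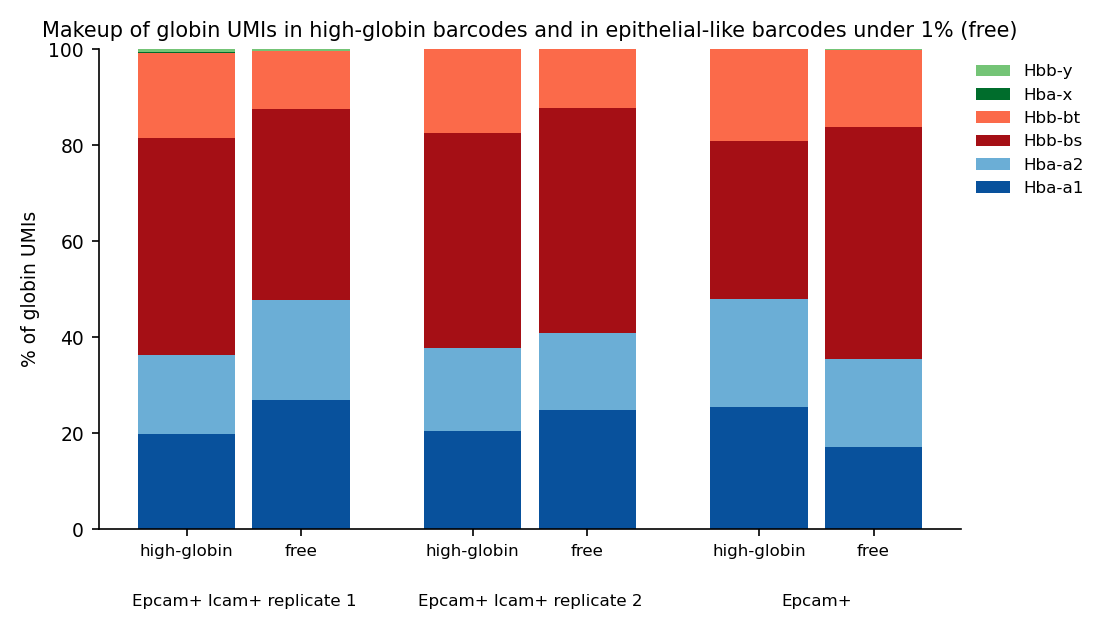
Percentage of globin UMIs from each gene (stacked bars from 0 to 100%) in the high-globin barcodes and in epithelial-like barcodes under 1% globin (labelled free), for each library. The Epcam+ library has 33.1% Hbb-bs in its high-globin barcodes and 48.3% in its free globin.

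The genes most like summed globin across barcodes were chosen by the median over libraries of Pearson's r between log1p CPM values. Alas2, the erythroid enzyme of the first step of heme synthesis, had r of 0.439 and 0.434 in the Epcam+ Icam+ libraries, against 0.167 in the Epcam+ library. Of its UMIs, 97.5% and 98.7% lay in high-globin barcodes in the Epcam+ Icam+ libraries, against 94.2% in the Epcam+ library. Tent5c, Ube2l6, the mitochondrial iron importer Slc25a37, the heme synthesis enzyme Fech, AY036118, Gm42418, Cdc25b and Lars2 each had a median r of 0.0899 or less, which in such sparse counts is no finding. The points share library and depth, and the numbers of barcodes were 4739, 4531 and 3697.

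Genes that accompany globin in red cells were tested between the sorts, as the members themselves were not. The lists, drawn up with earlier results of these data known, held 63 genes of the red cell membrane, heme synthesis, haemoglobin handling, regulators, late erythroid genes and other globin-fold genes. Of these, 50 had enough UMIs to be tested on library sums, and 16 were higher and 20 lower in the Epcam+ Icam+ libraries (edgeR quasi-likelihood test, Benjamini-Hochberg adjusted p under 0.05). Over all 16178 genes tested 78.7% were called, 40.3% as higher and 38.4% as lower, so the lists were called no more often than genes at large. The median log2 fold change over the 50 was -0.03, beside 0.04 over all genes tested. The test has 1 residual degree of freedom, and the labels do not say that the libraries came from separate pools, so its p-values reflect variation among these libraries alone, possibly technical.

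Alas2 and Slc4a1, found almost only in the high-globin barcodes, did not pass the test as run on all barcodes. Alas2 had 81 and 155 UMIs in the Epcam+ Icam+ libraries, against 172 in the Epcam+ library, a log2 fold change of -0.41 ± 0.30 (SE) with an adjusted p of 0.218 (edgeR). Alas2 did pass as lower with no filter on low counts (-0.42, adjusted p 0.0287, edgeR) and under the common filter on barcodes (-5.59, adjusted p 3.87e-06, edgeR), which removes most high-globin barcodes of the Epcam+ Icam+ libraries. Slc4a1, the anion exchanger of the red cell membrane, had 14 and 20 UMIs in the Epcam+ Icam+ libraries, against 12 in the Epcam+ library (0.62 ± 0.54, adjusted p 0.305, edgeR). High-globin barcodes held 79 and 153 of the Alas2 UMIs in the Epcam+ Icam+ libraries, against 162 in the Epcam+ library. These were named after their values were seen. Ahsp, which encodes the stabiliser of free alpha chains, was not analysed here, and Car1, Trim58 and Hbb-bh2 had 0 UMIs.

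The heme synthesis list was mostly lower in the Epcam+ Icam+ libraries, but outside red cells. Of its 10 genes 8 were lower and 1 higher, where 38.4% and 40.3% of all genes were, and the median log2 fold change was -0.83. Alad, the enzyme that joins aminolevulinate into porphobilinogen, fell by 0.91 ± 0.03 (log2, SE), to 40.4 and 39.0 CPM in the Epcam+ Icam+ libraries against 68.4 CPM in the Epcam+ library (adjusted p 1.16e-11, edgeR). Urod, which acts on uroporphyrinogen, fell by 1.13 ± 0.04, and Cpox, which acts on coproporphyrinogen, by 0.19 ± 0.04. The gene that rose was Slc25a37 (1.21 ± 0.07). Alad had 0 and 4 UMIs in the high-globin barcodes of the Epcam+ Icam+ libraries, against 6 in those of the Epcam+ library, of 2995 and 2648 in all in the Epcam+ Icam+ libraries, against 5775 in the Epcam+ library. Without high-globin barcodes 8 genes of this list were still lower and 1 higher.

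In the regulator list 8 of 13 tested genes rose and 2 fell in the Epcam+ Icam+ libraries, where 40.3% and 38.4% of all genes tested did. Zbtb7a, a repressor of fetal globin in human red cells, rose by 0.68 ± 0.04 (log2, SE), to 52.3 and 53.3 CPM in the Epcam+ Icam+ libraries against 30.2 CPM in the Epcam+ library. Lmo2, a partner of Tal1 and Gata1 that endothelial and myeloid cells also express, rose by 1.86 ± 0.07, to 22.1 and 22.1 CPM in the Epcam+ Icam+ libraries against 5.55 CPM in the Epcam+ library. Bcl11a, another repressor of embryonic globin, fell by 0.47 ± 0.05, and Klf1, the erythroid factor that binds CACCC motifs, fell by 1.08 ± 0.31 with 0 and 0 of its UMIs in high-globin barcodes of the Epcam+ Icam+ libraries, against 2 in those of the Epcam+ library. The call of Klf1 was lost with DESeq2 (adjusted p 0.177). Ldb1 had a log2 fold change of 0.06 ± 0.04 that did not pass the test (adjusted p 0.188, edgeR). These counts too came from other cells, since Zbtb7a had 0 and 1 UMIs in the high-globin barcodes of the Epcam+ Icam+ libraries, against 0 in those of the Epcam+ library. The summed level of the 8 macrophage markers was 1816 and 1838 CPM in the Epcam+ Icam+ libraries, against 232 CPM in the Epcam+ library, with none at 0. Its part in these differences was not tested.

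In the membrane list 3 of 10 tested genes rose and 1 fell. Beside this and the other list counts of this paragraph, 40.3% of all genes tested rose and 38.4% fell. Epb41, protein 4.1 of the membrane skeleton, rose by 0.92 ± 0.04, and Tfrc, the transferrin receptor, by 0.34 ± 0.03, while Icam4 (-0.15 ± 0.15) and Aqp1 (0.36 ± 0.18) did not pass the test. Of the list for haemoglobin handling, redox and gas exchange, 1 of 6 tested genes rose and 4 fell. Prdx2, a peroxidase abundant in red cells, fell by 0.38 ± 0.03, Car2, a carbonic anhydrase, by 1.07 ± 0.04 and Bpgm, which makes 2,3-bisphosphoglycerate, by 0.60 ± 0.03, whereas the glutathione peroxidase Gpx1 rose by 0.23 ± 0.04. Of the late erythroid list 3 of 8 rose and 4 fell, with Bnip3l, a receptor for mitophagy, falling by 0.22 ± 0.04, Fam210b falling by 0.34 ± 0.06, Mkrn1 rising by 0.17 ± 0.04 and Isg20 rising by 1.68 ± 0.07. The call of Mkrn1 was lost with DESeq2 (adjusted p 0.188). Among other globin-fold genes 1 of 3 tested was called. Mb, myoglobin, fell by 1.62 ± 0.22, with 45 and 49 UMIs in the Epcam+ Icam+ libraries against 157 in the Epcam+ library and none in a high-globin barcode (adjusted p 1.51e-05, edgeR). Cygb and Ngb, with 38 and 33 UMIs in all, did not pass, and Hbq1a had 4 UMIs in all.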

How the data were processed

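Cells of pooled E14.5 lungs were sequenced with the 10x Chromium 3′ v3 chemistry, per the labels' protocols. The deposited matrices hold raw UMI counts per gene and barcode, made by the authors, per the file headers, with version 5.0.1 of Cell Ranger for Epcam+ Icam+ cells and version 3.0.2 for Epcam+ cells. The submitters' processing notes name Cell Ranger 2.1.1 and the genome mm10, and this difference could not be settled. The gene annotation is not given in the sources used here. The gene tables listed 32285 and 32285 genes for Epcam+ Icam+ and 31053 for Epcam+, joined by Ensembl ID.

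The members and gene lists were chosen with earlier results of these data known. Libraries were grouped by their labels and all deposited barcodes were used, since a filter on genes removes most globin-rich barcodes. 0 columns of per-sample values were left unused. Barcodes were clustered per library without globin genes (scanpy 1.11.5, Leiden resolution 1, 2000 variable genes, 30 components), and a cluster was named where at least 3 markers passed. An automatic doublet call marked 0, 1 and 5 barcodes and so did not work. Doublets were therefore kept, and an alternative left out 180 and 164 barcodes of Epcam+ Icam+ and 109 of Epcam+. Intervals are exact at 95% and cover counting error only, and a count of 0 was read as allowing 3 counts. Promoters came from RefSeq and aligned transcripts from the reference annotation (biopython 1.88).

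Companion genes were tested on library sums with edgeR 4.0.16 (quasi-likelihood, TMM scaling, filterByExpr, R 4.3.3), with DESeq2 1.42.0 as an alternative. On simulated counts for this comparison the test recovered 97.9% of 193 genes changed 4-fold among 15804. The simulated libraries shared the same means for all other genes, so this says nothing of smaller changes or of differences between library preparations. Named genes were the 7 members, the 4 genes with most UMIs of each list, and the 10 genes most like summed globin. Any other gene named was chosen after its values were seen. Some genes that these rules select are not reported here.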

Additional observations from a re-analysis of the deposited data

How the results depend on the processing

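The summed globin level changed direction with the barcodes kept. The log2 ratio of the mean CPM of the Epcam+ Icam+ libraries to that of the Epcam+ library was 0.41, with -0.12 to 0.79 when a replicate was left out, -4.14 under the common filter on UMIs, genes and mitochondrial share, and -0.00079 without high-globin barcodes. The filter's value follows from its construction, as it keeps 0 and 1 high-globin barcodes of the Epcam+ Icam+ libraries, against 5 of the Epcam+ library. The embryonic share under that filter was 1.16% and 0.109% in the Epcam+ Icam+ libraries, against 0.0476% in the Epcam+ library. Among high-globin barcodes alone it was 0.737% and 0% in the Epcam+ Icam+ libraries, against 0.0011% in the Epcam+ library. In all other barcodes it was 1.01% and 0.171% in the Epcam+ Icam+ libraries, against 0.960% in the Epcam+ library. As a mean over barcodes with at least 20 globin UMIs it was 3.39% and 0% in the Epcam+ Icam+ libraries, against 4.47% in the Epcam+ library. Without the barcode with most embryonic UMIs it was 0.0184% in replicate 1, against 0.00952% in the Epcam+ library. The share held by high-globin barcodes was 99.1% and 99.1% in the Epcam+ Icam+ libraries, against 95.9% in the Epcam+ library with a cut at 1%, and 97.0% and 93.4%, against 87.5%, with a cut at 50%.

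The free level, in UMIs per barcode, was 0.211 and 1.92 in the Epcam+ Icam+ libraries with a cut at 10% or none, against 1.35 in the Epcam+ library with a cut at 10% and 4.32 with none. In macrophage-like barcodes it was 0.196 and 0.490 in the Epcam+ Icam+ libraries, against 1.38 in the Epcam+ library. In the lowest 25% of barcodes by depth it was 0.0969 and 0.171 in the Epcam+ Icam+ libraries, against 0.758 in the Epcam+ library, and without barcodes of 10 or more globin UMIs 0.0996 and 0.165 in the Epcam+ Icam+ libraries, against 1.34 in the Epcam+ library. The median was 0 and 0 in the Epcam+ Icam+ libraries, against 1 in the Epcam+ library. Under these settings the Epcam+ library had the higher value, except that replicate 2 lay above it with a cut at 10%. Finer clustering and leaving out doublets moved the free level by less than the interval of each library. Of the 50 companion genes, 8 to 9 were higher and 6 to 7 lower past a log2 change of 1 when a replicate was left out. Over all 16178 genes, 3699 to 3717 were higher and 2093 to 2170 lower in these settings. These are values with no test, as no residual degree of freedom is left. DESeq2 called 11 of 51 companion genes higher and 15 lower, where it called 4926 higher and 4952 lower of all 17152 genes tested. The other settings called 16 of 45 to 58 companion genes higher and 19 to 23 lower. Over all 16126 to 21802 genes tested in them, 6406 to 6723 were higher and 6139 to 6415 lower. Over all results 34 recomputed values moved and 22 did not, beside 4 and 4 of those chosen after seeing the data, namely leaving out high-globin barcodes for the companion genes, the barcode with most embryonic UMIs, and barcodes of 10 or more globin UMIs. No paired analysis was possible because the Epcam+ label carries no replicate number. With 1 Epcam+ library, leaving it out gives no comparison. Depth limits Hbb-bh1 and the embryonic share outside red cells, which rest on few UMIs.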
